A study of Mus musculus with 5 samples.

Results

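The collagen chain genes are the genes that encode the α chains of the collagens. They were taken as every gene symbol in the deposited feature lists made up of Col, a number, a and a number, which gave 44 of the 31053 genes counted. The rule used names and no measured value. All 44 had at least 1 unique molecular identifier (UMI, a tag that marks 1 captured RNA molecule) in at least 1 library.

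Collagens are triple helices of 3 α chains. The fibrillar types form the tensile fibrils of dermis and cartilage, type IV forms the sheet of basement membranes, type VI forms beaded filaments around cells, type VII anchors the epidermal basement membrane to the dermis, and the fibril-associated types coat the fibrils. Type XVII is a transmembrane protein of the hemidesmosome that holds basal keratinocytes to the basement membrane. In skin, most of this matrix is known to be made by dermal fibroblasts.

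The study profiled single cells of mouse skin with the Chromium 3′ kit after enzymatic digestion and removal of dead cells by sorting, in 5 libraries from C57BL/6 mice. Wild-type mice, 10 weeks old, were the source of 3 libraries: epidermis without treatment, dermis without treatment, and dermis of ears treated with imiquimod, a Toll-like receptor agonist that provokes psoriasis-like inflammation, on 5 consecutive days. Mice labelled K5. Pp6fl/fl, a line known for deletion of the phosphatase PP6 in keratin 5-expressing keratinocytes, gave lesional whole skin at 18 weeks and non-lesional epidermis at 10 weeks, both without treatment. Each group is 1 library, the number of mice behind it is not given in the labels, and no replicate exists, so no test between conditions was possible. Body site is given only for imiquimod. Genotype, treatment, age, tissue layer and library therefore cannot be told apart in the comparisons between libraries. Every interval is an exact 95% interval that covers counting error only.

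After filtering, 11613 cells remained, from 519 in untreated dermis to 4792 in imiquimod dermis, with median depths of 3406 to 8276.5 UMIs per cell. Pairs of libraries shared at most 23 cell barcodes, or 0.819% of the smaller library. Cells were clustered without the collagen genes and named from marker lists that hold no collagen, so each name stands for cells that are like that type. All 12 fibroblast markers were detected in the fibroblasts of lesional skin, imiquimod dermis and untreated dermis, and all 5 Langerhans cell markers in both libraries with enough of these cells. Of the 9 chondrocyte markers counted, Matn1 was at 0 in the chondrocytes of all 3 libraries with 10 or more of them, and Matn3 was at 0 in imiquimod and untreated dermis. Libraries labelled epidermis also held chondrocytes and a few other dermal cells.

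Collagen transcripts made up 0.962% of all UMIs in lesional skin, 0.372% in untreated dermis, 0.0979% in imiquimod dermis, 0.0819% in untreated epidermis and 0.0752% in non-lesional epidermis. In lesional skin and in both dermis libraries most came from fibroblasts, which held 92.1% of the collagen UMIs of lesional skin, 88.9% of those of untreated dermis and 65.6% of those of imiquimod dermis. In the epidermal libraries keratinocytes carried the largest share, 43.8% in untreated and 59.9% in non-lesional epidermis. T cells carried 28.7% and 13.0% of them, largely from 1 gene described below.

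**Figure D1:**
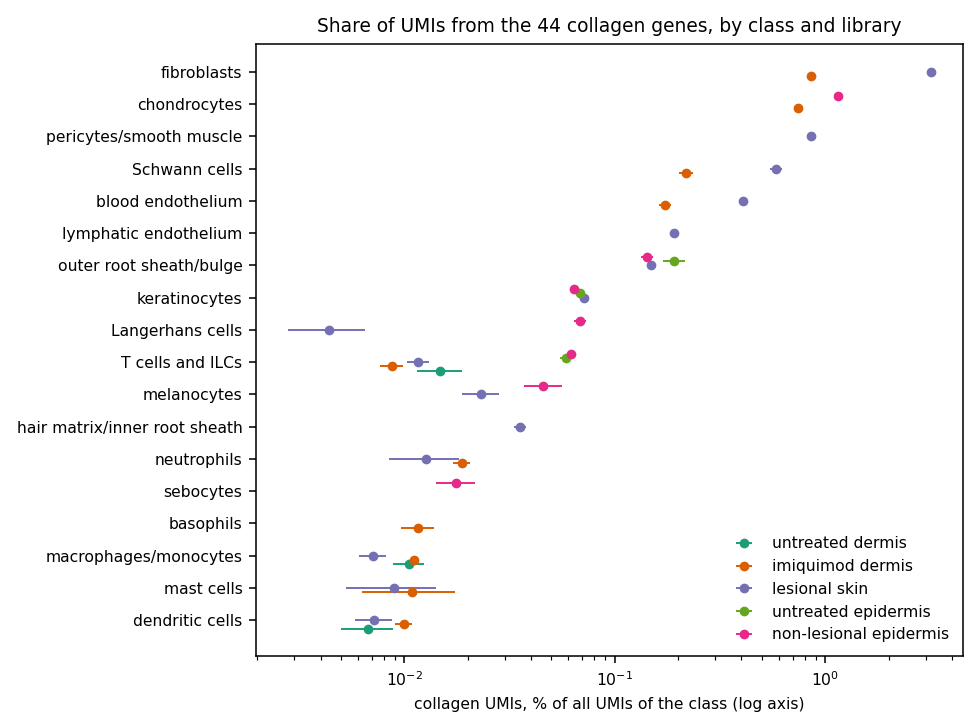
Share of the UMIs of each cell class that came from the 44 collagen genes (x axis, percent, log scale), for classes of at least 20 cells, with points coloured by library and bars for the exact 95% binomial interval. Fibroblasts of lesional skin lie at 3.17%, against 0.856% in imiquimod dermis, and most leukocyte classes lie near 0.01%.

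A class of at least 20 cells was said to hold a gene when it had at least 10 of its UMIs, at least 10 CPM (its UMIs scaled to a class total of 1000000), and a ratio to the T cells and innate lymphoid cells of the same library whose lower bound was above 3. For T cells themselves the largest other class served as background. RNA outside cells can give any class some collagen UMIs, which is why a background class was required. By this rule 35 members were held by at least 1 of 18 classes, 10 by exactly 1 class and 9 by 5 or more. Fibroblasts held 23 members in lesional skin and 20 in imiquimod dermis. Chondrocytes held 21 in imiquimod dermis and 16 in non-lesional epidermis, Schwann cells 16 in imiquimod dermis and 14 in lesional skin, and pericytes and smooth muscle 15 in lesional skin. Macrophages, neutrophils, mast cells, basophils and sebocytes held 0 members. The rule was applied to the collagen genes only, so no share of all genes stands beside these counts. The need for 10 UMIs also makes them depend on class depth, with 8728809 summed UMIs in lesional fibroblasts and 172055 in lesional Schwann cells.

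**Figure D2:**
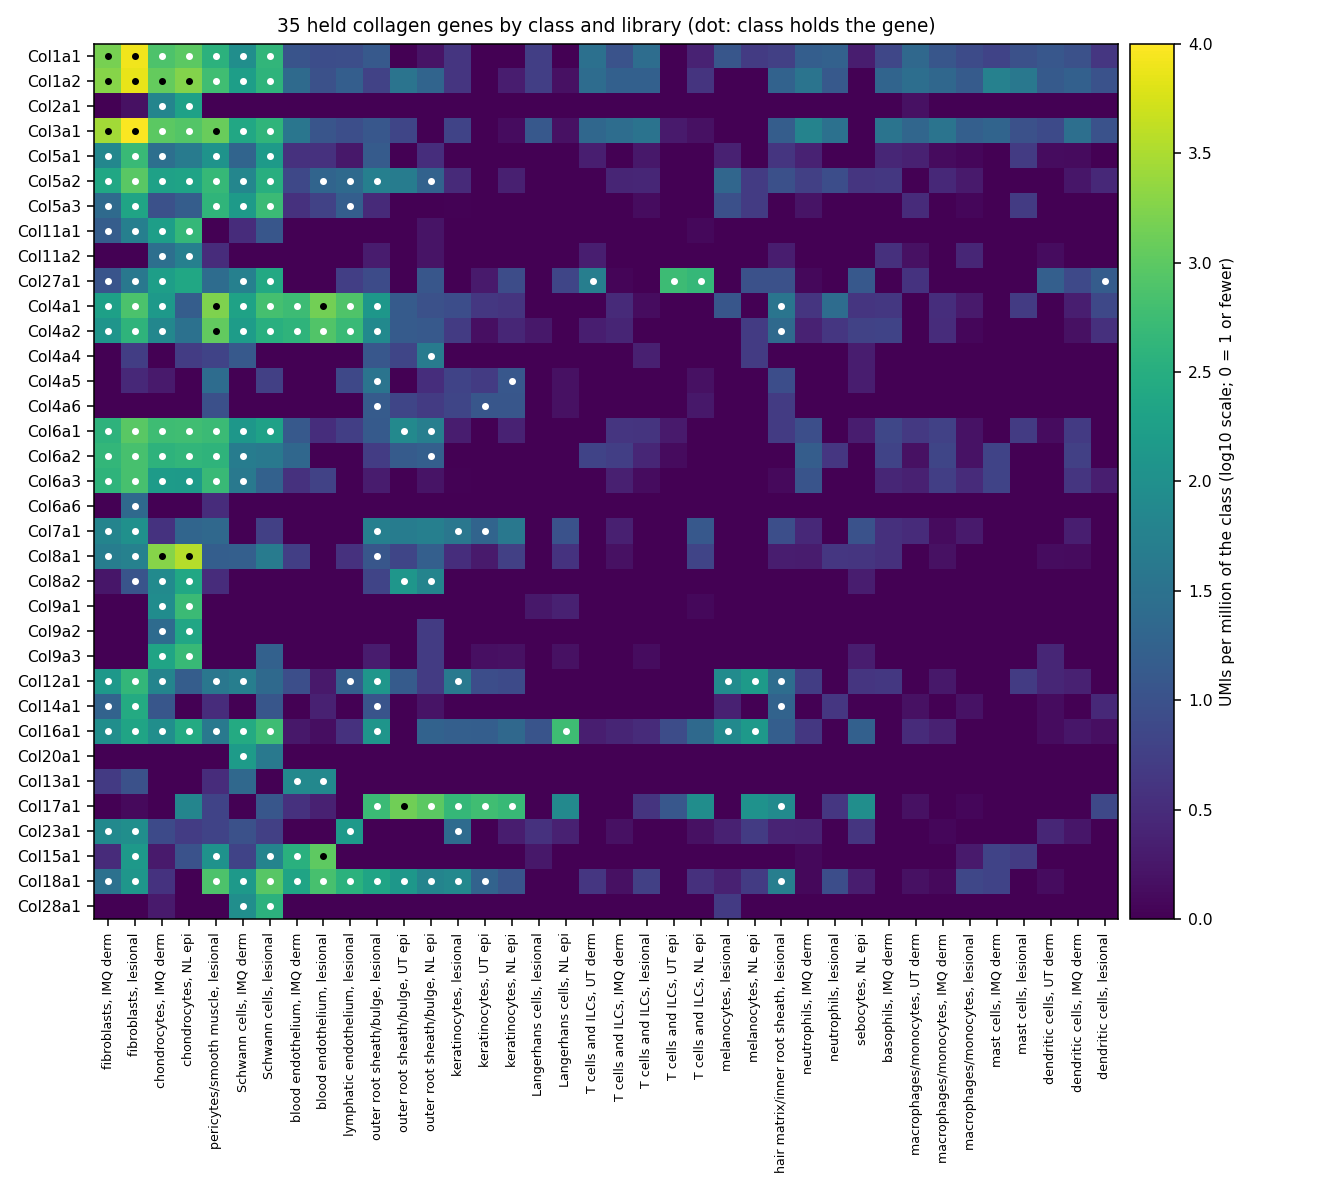
CPM of the class (colour, log10 scale) for the 35 held members (y axis, ordered by collagen family) in each class and library with at least 20 cells (x axis), where UT is untreated, IMQ imiquimod, NL non-lesional, derm dermis and epi epidermis. Dots mark classes that hold the gene; the fibrillar and type VI rows are filled on the left, Col17a1 in the keratinocyte classes and Col27a1 in epidermal T cells.

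The upstream sequences of 3 members are given here because their transcripts lay in different cell classes: Col3a1 in fibroblasts, Col17a1 in basal-type epithelium and Col27a1 in epidermal T cells. They are from RefSeq on GRCm38.p6, and each stops just before a RefSeq transcription start or, for Col17a1, 52 bases before it, where the annotated gene begins. The start used for Col27a1 lies inside the gene as GENCODE gives it. The windows are chr1:45311288-45311537 on the plus strand, chr19:47692095-47692292 on the minus strand and chr4:63215162-63215411 on the plus strand. Capitals mark the TATA box letters TATAAA, the box named for CCAAT, the GC box letters GGGCGG or the AP-1 type motif TGANTCA, on either strand; these motifs do not overlap one another in the windows shown.
Col3a1: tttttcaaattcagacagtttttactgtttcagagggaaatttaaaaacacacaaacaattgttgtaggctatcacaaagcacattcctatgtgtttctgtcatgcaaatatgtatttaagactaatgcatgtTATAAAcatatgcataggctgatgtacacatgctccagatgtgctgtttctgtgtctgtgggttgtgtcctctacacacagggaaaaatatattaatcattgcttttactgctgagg
Col17a1: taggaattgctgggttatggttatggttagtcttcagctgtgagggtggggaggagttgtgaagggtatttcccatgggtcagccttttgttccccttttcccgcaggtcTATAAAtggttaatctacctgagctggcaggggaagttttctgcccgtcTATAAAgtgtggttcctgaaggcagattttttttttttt
Col27a1: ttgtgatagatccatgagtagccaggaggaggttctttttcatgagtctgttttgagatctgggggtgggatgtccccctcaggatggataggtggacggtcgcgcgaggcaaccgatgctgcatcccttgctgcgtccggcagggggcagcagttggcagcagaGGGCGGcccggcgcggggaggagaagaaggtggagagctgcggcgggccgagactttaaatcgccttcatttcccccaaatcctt
TATAAA occurred 1 time in the Col3a1 window and 2 times in the Col17a1 window, and GGGCGG 1 time in the Col27a1 window. Over the 250 bases before all 32851 starts in the same table, TATAAA was found in 12.4%, CCAAT in 33.8%, GGGCGG in 32.7% and TGANTCA in 6.75%. Upstream sequence was at hand for 35 members, which are not the same set as the 35 held ones. It was lacking for Col1a1, Col2a1, Col12a1 and Col14a1, among others, and present for Col10a1 and Col19a1, which no class held. Of the 35 with sequence, 5 had TATAAA, 13 CCAAT, 21 GGGCGG and 1 TGANTCA before at least 1 start. These counts are per gene over any of its starts, whereas the shares are per start, so they are not in the same unit. A match is a string of letters, not a measured binding site.

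The major fibrillar chains lay mostly in fibroblasts in lesional skin and both dermis libraries, but not in the epidermal libraries. Col1a1 and Col1a2, the 2 chains of type I collagen, and Col3a1, the chain of type III, lie at chr11:94936224-94953042, chr6:4504814-4541544 and chr1:45311538-45349706 (GRCm38, GENCODE vM21). Fibroblasts of lesional skin had 8164 CPM of Col1a1 (8104 to 8224), 7347 of Col1a2 and 9435 of Col3a1, and held 99.5%, 99.3% and 99.1% of the UMIs of these genes in that library. Fibroblasts of imiquimod dermis had 1492, 1844 and 2829.9 CPM and held 76.0%, 69.8% and 74.2%. The lesional fibroblasts were above the imiquimod ones for each gene, with intervals that did not overlap. The T cells of the same libraries, used as background, had 26.9 and 10.4 CPM of Col1a1. Schwann cells had 430.1 CPM in lesional skin and 94.0 in imiquimod dermis, lesional pericytes and smooth muscle 370.2, and imiquimod chondrocytes 753.

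Untreated dermis held only 16 fibroblasts, too few for a comparison, but their values of the type I and type III chains were the highest of the series. They had 22464 CPM of Col1a1 (21735 to 23211; 3591 UMIs), 18973 of Col1a2 and 14888 of Col3a1. Collagen took a median of 4.67% of the UMIs of each of these cells, with a range of 0.182% to 11.4%. In imiquimod dermis the median was 0.634% over 296 cells (0% to 5.34%), and in lesional skin 1.33% over 677 cells (0% to 26.7%). The ranges of the 3 libraries overlapped. Other chains of the untreated fibroblasts were not all the highest: Col5a2 had 538 CPM and Col4a1 125, below the 958 and 746 of lesional fibroblasts. Col6a1 had 1351 CPM, above the 953 of lesional fibroblasts.

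The fibroblasts of lesional skin and imiquimod dermis also fell into different clusters: 81.2% of the lesional ones were in cluster 6, led by Mfap5, Clec3b and Pi16, and 93.2% of the imiquimod ones in cluster 14, led by Rarres2, Cxcl5 and Saa3. Within cluster 14, the 14 cells of untreated dermis gave 6.51% of their summed UMIs to collagen, the 12 cells of lesional skin 1.40% and the 276 cells of imiquimod dermis 0.827%. Within cluster 6, the 550 lesional cells gave 3.52% and the 8 imiquimod cells 2.12%. The order of untreated, lesional and imiquimod fibroblasts was thus the same inside cluster 14, on few cells from 2 of the libraries. Single chains did not all follow this order. The 12 lesional cells of cluster 14 had 5762 CPM of Col1a1 but 199.6 of Col3a1 and 140 of Col6a3, whereas the 276 imiquimod cells had 1457, 2651 and 406. In cluster 6 the lesional cells had 9077 CPM of Col1a1, 10633 of Col3a1 and 65.5 of Col8a1. The 8 imiquimod cells of that cluster had 3238, 9947 and 883.

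**Figure D3:**
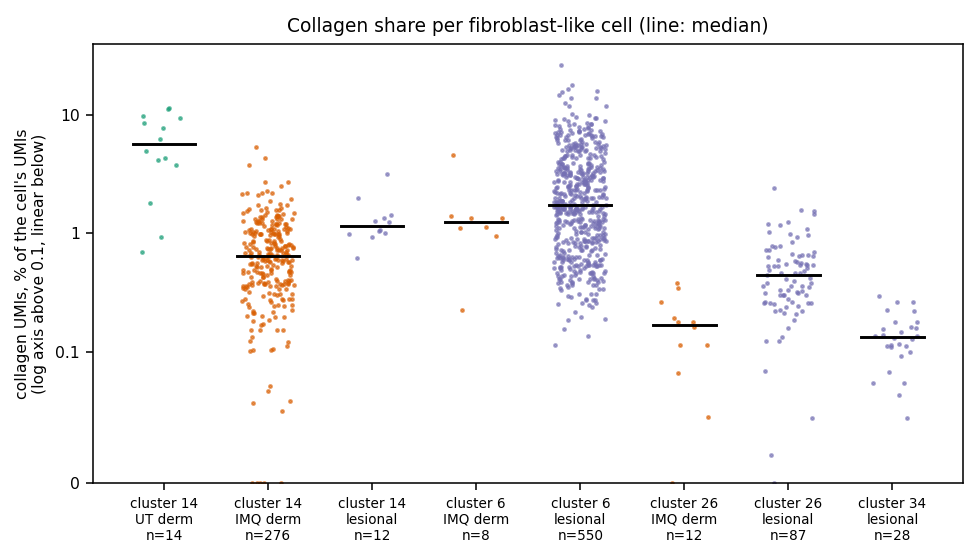
Collagen share of the UMIs of each fibroblast-like cell (y axis, percent, log scale above 0.1 and linear below), by cluster and library (x axis, with the number of cells), with the median as a line. The untreated cells of cluster 14 have a median of 5.66%, against 0.645% for the imiquimod cells of the same cluster, and the cells of cluster 34 lie lowest at 0.133%.

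Across all 23 members measured in both fibroblast groups (at least 10 UMIs over both and at least 10 CPM in either), 19 were higher in lesional skin with an interval wholly beyond 1.5-fold and 0 were lower. Among all 8891 genes measured the shares were 35.3% higher and 8.74% lower. The median log2 ratio was 1.67 over the members and 0.56 over all genes, and after centring on the median of all genes 16 members were still higher. The 12 fibroblast markers summed to 23079 CPM in lesional and 16384 in imiquimod fibroblasts, the 10 pericyte and smooth muscle markers to 193 (10 with a UMI) and 48.3 (8), the 12 keratinocyte markers to 166 (12) and 58.4 (7), and the 9 Schwann cell markers to 181 and 21.9, 8 in each; their part in the result was not tested. The cells differed in cluster as well as in library, so a change of state and a change in the kind of fibroblast cannot be told apart here.

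Type V collagen, which sets fibril diameter, followed the same direction. Col5a1 was 7.06-fold higher in lesional fibroblasts (6.14 to 8.16), with 508 against 72.0 CPM. Col5a2 was 4.04-fold higher (3.74 to 4.37), with 958 against 237 CPM. Col5a3 was 8.84-fold higher in fibroblasts, but its level was highest in Schwann cells of lesional skin at 529 CPM (426 to 649), with 421 CPM in pericytes. Col11a1, a fibrillar chain of cartilage, was 3.55-fold higher in lesional fibroblasts, at 53.0 against 14.9 CPM.

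The largest ratios in fibroblasts were those of chains outside the major fibrils. Col15a1, a multiplexin of the basement membrane zone, had 148 CPM in lesional and 3.13 CPM in imiquimod fibroblasts, a ratio of 47.1 (24.8 to 103). Col14a1, a fibril-associated chain, had 275 and 18.8 CPM, a ratio of 14.7 (11.2 to 19.6). Col6a6, a late-described type VI chain, was held by lesional fibroblasts alone, with 206 UMIs against 1, a ratio of 67.9 whose interval ran from 12.0 to 2693. Fibroblasts held 99.5% of the Col6a6 UMIs of lesional skin.

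The main type VI chains differed less. Col6a1 was 2.48-fold higher in lesional fibroblasts (2.33 to 2.64) and Col6a3 1.73-fold (1.62 to 1.84). Col6a2 was 1.53-fold higher (1.45 to 1.63) and Col7a1, the anchoring fibril chain, 1.59-fold (1.36 to 1.88), with intervals that reach below 1.5. Col8a1, a short-chain network collagen, and Col23a1, a transmembrane collagen, had ratios of 1.17 (0.971 to 1.42) and 1.19 (1.02 to 1.38). Col12a1 and Col16a1, both fibril-associated, were 3.26-fold and 2.30-fold higher, and Col4a1, Col4a2 and Col18a1, all of basement membranes, 3.95-fold, 3.20-fold and 4.08-fold. Col8a2 at 11.1 against 1.74 CPM and Col27a1 at 40.6 against 10.8 CPM completed the 19.

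**Figure D4:**
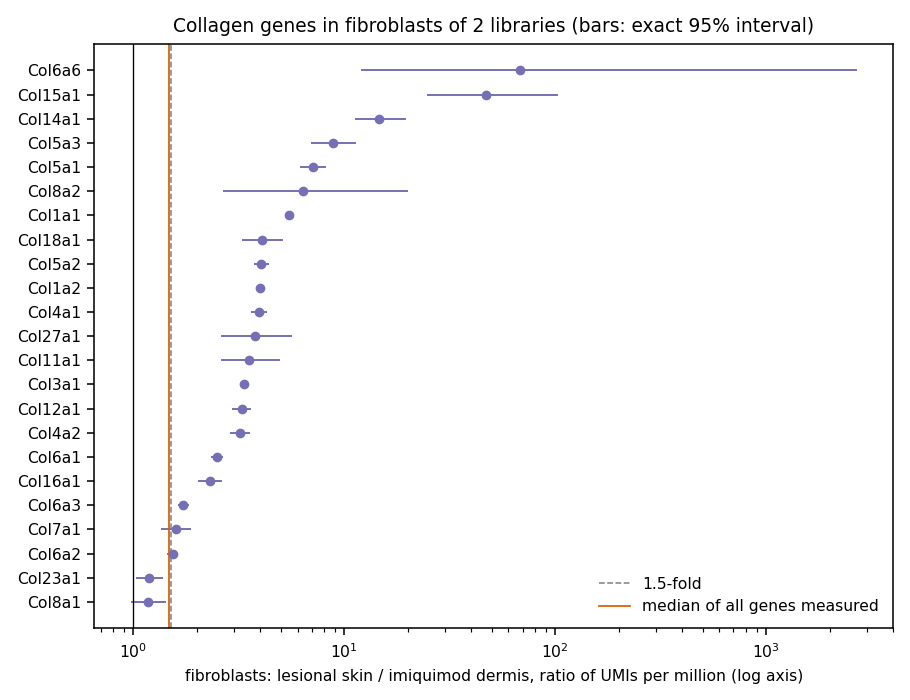
Ratio of CPM in fibroblasts of lesional skin to CPM in those of imiquimod dermis (x axis, log scale) for the 23 members measured, with exact 95% intervals as bars, the 1.5-fold bound dashed and the median of all genes measured as an orange line. The intervals of 19 members lie wholly to the right of 1.5 and those of Col8a1, Col23a1, Col6a2 and Col7a1 do not.

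The balance of partner chains was not the same in the 2 libraries. The UMI ratio of Col1a1 to Col1a2 was 1.11 (1.10 to 1.12) in lesional and 0.809 (0.777 to 0.843) in imiquimod fibroblasts, whereas type I collagen is usually assembled with more α1 than α2 chains. The ratio of Col5a1 to Col5a2 was 0.531 and 0.304, and that of Col6a1 to Col6a2 1.37 and 0.850, in the same order. Capture differs between genes, so only the difference between libraries can be read.

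The smaller fibroblast clusters of lesional skin carried rare chains. Cluster 26, 87 cells led by Rspo3 and Hhip, had 487 CPM of Col23a1 (431 to 548) against 69.9 in cluster 6, 78.7 CPM of Col13a1, a transmembrane collagen, against 5.6, and 32.2 CPM of Col26a1 against 1.4. Cluster 34, 28 cells, was led by Angpt4, Cntn1 and Snhg11, with Kera, Tnmd and Fmod lower among its leading genes. It was named fibroblasts at a score of 0.51, just above the minimum of 0.5, with 6 of the 12 fibroblast markers detected. Cluster 34 had 97.2 CPM of Col24a1 (65.6 to 139), a fibrillar chain, against 4.5 in cluster 6. The same cluster had 210.5 CPM of Col1a1, far below the 9077 of cluster 6.

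Genes that act with collagens were also higher in lesional fibroblasts. The list called maturation genes holds enzymes and chaperones, but also Ctsk, a collagen-degrading protease. Of it, 19 of the 30 measured were higher beyond 1.5-fold and 0 lower. P4ha3, a prolyl hydroxylase, was 30.97-fold higher (10.5 to 151) and Plod2, a lysyl hydroxylase, 16.2-fold (7.77 to 40.6). All 7 measured collagen receptors were higher, among them Ddr2 at 4.17-fold and Mrc2, an uptake receptor, at 9.55-fold. Of the fibril-binding proteoglycans and glycoproteins 16 of 19 were higher and 1 lower, with Tnxb 10.5-fold and Fn1 8.96-fold. Basement membrane partners gave 16 of 18 higher and 0 lower, with Lamc1 7.16-fold. The shares over all genes were the 35.3% higher and 8.74% lower given above. The medians of these 4 lists on the log2 scale were 1.03, 1.78, 1.24 and 1.71, beside 0.56 for all genes.

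Chondrocytes formed cluster 29 and held the cartilage types, but also the type I chains, at higher levels than Col2a1. Col1a1 and Col1a2 had 973 and 1787 CPM in non-lesional epidermis and 753 and 1149 in imiquimod dermis. Col2a1 (chr15:97975602-98004695), the main fibrillar chain of cartilage, had 193 CPM in non-lesional epidermis (137 to 266) and 66.5 in imiquimod dermis (46.0 to 92.9), with 90.5% and 94.4% of its UMIs in these cells. Col9a1, Col9a2 and Col9a3, the chains of the fibril-associated type IX, had 529.5, 229 and 494 CPM in non-lesional epidermis and 88.0, 25.4 and 215 in imiquimod dermis. Col11a1 had 463 and 174 CPM, and Col11a2 56.0 and 29.3. The most abundant collagen of these cells was Col8a1 (chr16:57624258-57754737), with 3554 CPM in non-lesional epidermis (3295 to 3828) and 1867 in imiquimod dermis, and 84.9% and 82.5% of its UMIs. Col10a1, the chain of hypertrophic cartilage, had 4 UMIs in imiquimod chondrocytes and 8 in all libraries.

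Of 22 members measured in chondrocytes of both libraries, 9 were higher in non-lesional epidermis and 1, Col4a1, lower, beside 3.98% and 2.63% of all genes. This comparison was added after the values were seen. Col9a2 had the largest finite ratio, 9.02 (4.78 to 18.2), followed by Col9a1 at 6.02 (4.21 to 8.74), while Col1a1, at 1.29 (1.08 to 1.54), and Col6a1, at 1.01 (0.809 to 1.26), did not pass 1.5-fold. The 9 include Col17a1, with 13 UMIs against 0, at 66.2 CPM; the T cells, Langerhans cells, melanocytes and sebocytes of the same library had 92.8, 75.4, 108 and 95.3 CPM of it. The 12 keratinocyte markers summed to 8799 CPM in the chondrocytes of non-lesional epidermis (12 with a UMI) and 99.7 in those of imiquimod dermis (8 of 12), the 12 T cell and innate lymphoid cell markers to 1701 (10) and 158 (8), and the 9 chondrocyte markers to 10275 (8) and 3661 (7). The 12 fibroblast markers were also high in these cells, at 15876 and 14222 CPM, 11 with a UMI in each. The part of these levels in the result was not tested. On the log2 scale all genes had a median of 0.12, and after centring 9 were higher and 1 lower. The 10 chondrocytes of untreated dermis had 182 CPM of Col2a1 and 1991 of Col8a1.

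The main chains of basement membrane type IV reached their highest levels in vessels and their wall cells, while fibroblasts held the largest share of their UMIs in lesional skin and imiquimod dermis. Col4a1 and Col4a2, the ubiquitous pair, lie head to head at chr8:11198423-11312826 and chr8:11312805-11449287 and overlap at their starts. Pericytes and smooth muscle of lesional skin had 1688 CPM of Col4a1 (1547 to 1838) and 1075 of Col4a2. Blood endothelium had 1391 (1341 to 1442) and 816 in lesional skin and 559 and 395 in imiquimod dermis, and lymphatic endothelium 786 and 508. Fibroblasts of lesional skin had 746 CPM of Col4a1 and 393 of Col4a2, or 57.05% and 53.8% of the UMIs of these genes, and those of imiquimod dermis 189 and 123, or 44.5% and 43.7%. Schwann cells had 663 and 331 CPM in lesional skin. In all 14 pairs of class and library with at least 10 UMIs of each, Col4a1 had more UMIs than Col4a2, with ratios from 1.03 to 2.0. The intervals reached below 1 in macrophages and Schwann cells of imiquimod dermis and in keratinocytes of non-lesional epidermis. Capture differs between genes, so these ratios do not give the balance of the 2 transcripts. Col4a5 and Col4a6, a pair of the epithelial basement membrane, were instead held by epithelium: Col4a5 had 34.9 CPM in outer root sheath and bulge keratinocytes of lesional skin and 12.2 in keratinocytes of non-lesional epidermis, and Col4a6 14.2 in the former and 11.8 in keratinocytes of untreated epidermis. Col4a4 was held by outer root sheath and bulge keratinocytes of non-lesional epidermis, with 46.2 CPM (30.7 to 66.8). In lesional skin 47 of its 83 UMIs were in fibroblasts, at 5.38 CPM, below the 10 CPM needed to hold it.

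In blood endothelium, all in cluster 19 in both libraries (171 lesional and 39 imiquimod cells), 4 of 11 members were higher in lesional skin and 2 lower, beside 15.2% and 6.58% of all genes. The 4 were Col15a1 at 2.90-fold (2.50 to 3.38; 1019 against 351 CPM), Col18a1, the multiplexin that yields endostatin, at 3.18-fold (2.63 to 3.87), Col4a1 at 2.49-fold (2.21 to 2.81) and Col4a2 at 2.06-fold (1.79 to 2.39). The 2 lower were Col6a2 and Col3a1, with 2 and 24 UMIs in lesional endothelium. The median of all genes was 0.38 on the log2 scale, and centring on it left 3 higher and 3 lower. With 1 haemoglobin-rich cell of the cluster kept, the counts were again 4 and 2, beside 15.1% and 6.77% of all genes. The 12 fibroblast markers summed to 655 CPM in lesional endothelium (11 with a UMI, Fbln1 at 0) and 180 in imiquimod endothelium (7 of 12). The 10 pericyte and smooth muscle markers summed to 970 CPM (10 with a UMI) and 478 (8), and the 10 markers of blood endothelium itself to 8608 and 5344. The part of these differences in the result was not tested. Among the classes, Col13a1 was held by blood endothelium alone, at 73.5 CPM in lesional skin and 75.4 in imiquimod dermis, a ratio of 0.975 (0.687 to 1.41). The lesional cells of cluster 26, part of the fibroblast class, had a similar 78.7 CPM (57.2 to 106). Basement membrane partners in these cells gave 12 of 16 higher and 0 lower, collagen receptors 5 of 6 and 0, fibril-binding genes 6 of 9 and 1, and maturation genes 6 of 23 and 2.

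Schwann cells (cluster 22) held 18 members over both libraries. Col28a1, a peripheral nerve collagen, had 366 CPM in lesional skin (281 to 468) and 94.0 in imiquimod dermis (63.0 to 135), with 84.0% and 90.6% of its UMIs in these cells. Col20a1, a fibril-associated chain, was held by them in imiquimod dermis, with 156 CPM (115 to 206). Col16a1 reached 575 and 276 CPM and Col18a1 901 and 139. Of 19 members, 11 were higher in lesional skin and 1, Col20a1, lower, beside 9.12% and 4.27% of all genes. The ratios ran up to 9.86 for Col15a1 (2.15 to 91.6, on 11 against 2 UMIs), with 6.46 for Col18a1 (4.58 to 9.28), 3.89 for Col28a1 (2.47 to 6.27) and 0.261 for Col20a1 (0.0998 to 0.581). As a mean over cells rather than of summed UMIs, 5 were higher. The median depth was 1634.5 UMIs in lesional and 4417 in imiquimod Schwann cells, and its part in the result was not tested. With the haemoglobin-rich cells of the cluster kept, 66 lesional against 54 imiquimod cells, 8 were higher and 1 lower, beside 3.62% and 10.6% of all genes. Over all genes the median log2 ratio was 0.28, and after centring 9 were higher and 1 lower. The 9 Schwann cell markers themselves summed to 9160 CPM in lesional and 2872 in imiquimod Schwann cells, all 9 with a UMI in both. In the same order the 12 keratinocyte markers summed to 1226 CPM (9 with a UMI) and 58.4 (4), the 10 pericyte and smooth muscle markers to 645 (2) and 175 (4), and the 12 fibroblast markers to 291 (8) and 681 (9). The part of these differences in the result was not tested.

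Of the other lists in Schwann cells, basement membrane partners gave 10 of 17 higher in lesional Schwann cells and 0 lower, with Dst at 6.82-fold (4.70 to 10.1), collagen receptors 5 of 7 and 0, maturation genes 4 of 20 and 0, and fibril-binding genes 3 of 9 and 2, beside 9.12% and 4.27% of all genes.

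Col17a1 (chr19:47646344-47692094, minus strand), the hemidesmosomal collagen whose upstream sequence is given above, was held by every keratinocyte class. Outer root sheath and bulge keratinocytes had 1361 CPM in untreated epidermis (1177 to 1566), 977 in non-lesional epidermis and 530.1 in lesional skin. Keratinocytes had 586, 493 and 463 CPM in the same order. Keratinocytes carried 84.7%, 87.0% and 69.8% of the Col17a1 UMIs of their libraries, and outer root sheath and bulge keratinocytes 13.9%, 7.11% and 24.0%. The T cell background was 12.3, 92.8 and 4.04 CPM, so that of non-lesional epidermis was the highest.

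The keratinocyte class was mixed: its clusters 13 and 21 had more outer root sheath markers than keratinocyte markers among their top 10 genes, so the class is also read by cluster number. Col17a1 was highest in cluster 2, whose leading genes include Tgm3 and Krt15, at 809.7 CPM in untreated and 619 in non-lesional epidermis. Cluster 21, led by Cst6, Klk7 and Cdsn, genes of the upper epidermis, had 152, 176 and 21.8 CPM in untreated epidermis, non-lesional epidermis and lesional skin. In cluster 16, led by Krt6a, Krt16 and cell cycle genes, it had 531 CPM in lesional skin and 404 in non-lesional epidermis, a ratio of 1.31 (1.21 to 1.43).

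Summed over the class, 3 of 8 members were higher in keratinocytes of lesional skin than of non-lesional epidermis and 0 lower, beside 21.4% and 10.7% of all genes. The median of all genes was 0.16 on the log2 scale, and after centring 3 were higher and 1 lower. Col18a1 had 74.0 against 11.3 CPM, a ratio of 6.54 (5.47 to 7.85). Col12a1 had 41.5 against 8.04 CPM, a ratio of 5.16 (4.14 to 6.46). Col23a1 had 25.1 against 2.11 CPM, a ratio of 11.9 (8.05 to 18.0). Within cluster 16 (147 and 104 cells) the ratios of these 3 genes were 7.23, 3.67 and 16.4, and Col27a1 was lower, with 3 against 17 UMIs, beside 13.0% of all genes higher and 11.3% lower. Within cluster 21 (37 and 131 cells) 0 of 3 were higher and Col7a1, Col16a1 and Col17a1 were lower, beside 11.5% and 6.16% of all genes. Which lesional cells count as keratinocytes and which as outer root sheath depended on the clustering: 207 cells were named keratinocytes, but 36 with all barcodes kept, 61 without doublet removal and 23 at resolution 0.5, under which 1, 0 and 2 members were higher.

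Of the other lists in keratinocytes, maturation genes gave 3 of 13 higher in lesional skin and 0 lower, with Furin, a proprotein convertase, 3.05-fold, collagen receptors 2 of 6 and 0, with Cd44 at 3.36-fold, fibril-binding genes 2 of 5 and 1, and basement membrane partners 5 of 15 and 3, beside the 21.4% and 10.7% of all genes in this comparison.

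Between non-lesional and untreated epidermis the keratinocyte collagens differed little. Of 6 members 1, Col7a1, was higher in non-lesional epidermis, with 40.1 against 19.1 CPM, a ratio of 2.10 (1.51 to 2.98), and 0 were lower, beside 3.28% and 1.88% of all genes. The 2 libraries drew on different clusters: 73.5% of the untreated keratinocytes were in cluster 10, which has a median of 1540.0 UMIs, and 61.5% of the non-lesional ones in cluster 2. Within cluster 2 Col7a1 had a ratio of 1.33 (0.893 to 2.05) and within cluster 13 of 1.02 (0.495 to 2.36), and 0 members of 7 and 10 were called in either direction, beside 1.7% and 1.07% of all genes higher and 1.39% and 1.84% lower. Within cluster 10 the 1 member measured was not called, beside 1.65% and 0.463% of all genes, and within cluster 21 0 of 3 were, beside 1.51% and 1.78%. Of the other lists, basement membrane partners gave 1 of 14 higher (Dst, 2.13-fold) and 0 lower, fibril-binding genes 1 of 4 and 0, and maturation genes and receptors 0 of 11 and 0 of 7 in either direction.

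Outer root sheath and bulge keratinocytes came from cluster 20 in non-lesional epidermis (155 cells) and from cluster 23 for 96.7% of the 122 lesional cells, so the follicle cells compared were not of 1 cluster. In this comparison, added after the values were seen, 8 of 22 members were higher in lesional skin and 4 lower, beside 12.8% and 8.3% of all genes. Col12a1 had 128 against 4.95 CPM and Col4a1 133 against 9.90, ratios of 25.9 (8.75 to 126) and 13.4 (6.09 to 37.0). Col8a2, a short-chain network collagen, was lower, at 6.58 against 64.3 CPM, a ratio of 0.102 (0.0501 to 0.196), and had 125 CPM in the same class of untreated epidermis. Col4a4, Col6a1 and Col17a1 were the other lower members, the last with a ratio of 0.543 (0.490 to 0.601).

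Col27a1 (chr4:63214004-63334991), a fibrillar chain best known from cartilage, was a T cell transcript in both epidermal libraries. T cells and innate lymphoid cells had 559.7 CPM in untreated epidermis (523 to 598; 864 UMIs) and 454 in non-lesional epidermis (431 to 477; 1496 UMIs), and carried 98.4% and 87.4% of its UMIs. Keratinocytes of these libraries had 1.96 and 8.52 CPM. By cluster, cluster 11 had 574 CPM in untreated epidermis and cluster 3 had 461.5 in non-lesional epidermis; both were led by T cell receptor genes that include Trdc, the constant part of the γδ receptor, and cluster 3 also by Trdv4. In 302 of 360 cells of cluster 11 and 630 of 874 of cluster 3 at least 1 Col27a1 UMI was found, 83.9% and 72.1%, against 0.875% and 8.51% of the keratinocytes of these libraries. At 2000 UMIs per cell these shares were 59.5%, 54.3%, 0.422% and 1.48%, after leaving out 27, 99, 220 and 116 shallower cells.

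Dermal and lesional T cells did not share this level. T cells had 51.4 CPM in untreated dermis (32.9 to 76.5; 24 UMIs in 137 cells), 1.12 in imiquimod dermis (3 UMIs in 374 cells) and 0 UMIs in 485 cells of lesional skin, which by the floor of 3 counts allows a share of up to 0.619% of cells with a UMI. Of the 24 UMIs in untreated dermis, 22 came from the 14 cells of cluster 11, at 432 CPM, and all 3 of imiquimod dermis from 7 cells of the same cluster, at 142. Lesional skin had 1 cell of cluster 11 and 0 of cluster 3. Its 0 UMIs are therefore those of other T cell clusters and do not show a change within these 2. The type 17 cluster 7, led by Il17f, Il22 and Il17a, had 2 UMIs in untreated dermis and 0 in imiquimod dermis and lesional skin.

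In T cells of imiquimod against untreated dermis, 0 of 4 members were higher and 1, Col27a1, lower, beside 3.73% and 10.9% of all genes. The ratio of untreated to imiquimod was 46.0 (13.98 to 239). Without clusters 3 and 11, 3 members were measured and Col27a1 was not among them; Col1a1 was then lower, at 9.38 against 31.4 CPM, beside 3.40% of all genes higher and 9.77% lower. Within cluster 7 it was again Col1a1 that was lower, 1 of 3 members, at a ratio of 0.278 (0.121 to 0.662), with 0 higher, beside 3.1% and 9.53% of all genes. The call on Col27a1 thus rested on the cells of cluster 11, which were 10.2% of the T cells of untreated dermis. Of the other lists, maturation genes gave 0 of 11 higher and 3 lower, receptors 0 of 4 and 2, fibril-binding genes 3 of 6 and 0, and basement membrane partners 0 of 6 and 0; the 3 higher were Dcn, Lum and Tgfbi, the first 2 of them fibroblast transcripts. The 12 fibroblast markers summed to 154 CPM in the imiquimod T cells (12 with a UMI) and 57.8 in the untreated ones (6 of 12), and the 12 keratinocyte markers to 64.0 (9) and 345 (8). The part of these differences in the result was not tested. The median of all genes was -0.30 on the log2 scale, and centring on it left 0 higher and 1 lower.

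A cluster left unnamed for its low depth (cluster 30, 48 cells of non-lesional epidermis) had 506 CPM of Col27a1, which was among its leading genes. Outside T cells, Col27a1 was held by chondrocytes of imiquimod dermis at 172 CPM, by Schwann cells of both libraries, by fibroblasts and by dendritic cells of lesional skin at 14.5 CPM (20 UMIs in 8 of 122 cells). Chondrocytes of non-lesional epidermis had 239 CPM, below the T cells that serve as background there.

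**Figure D5:**
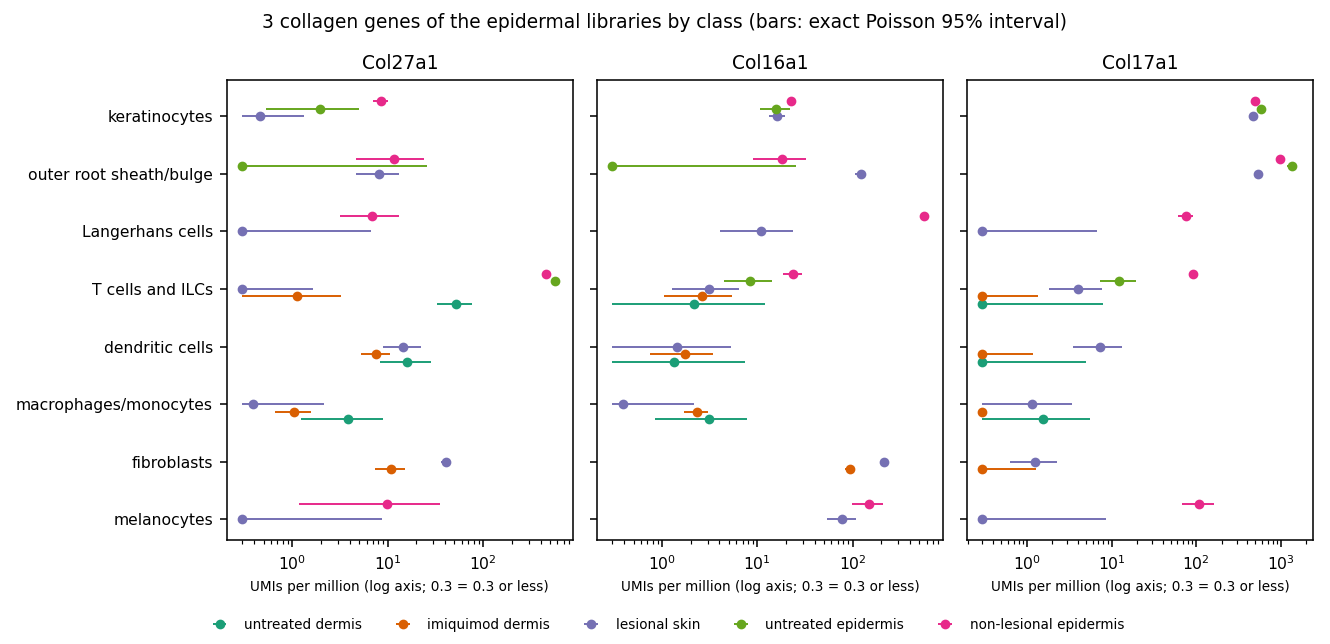
CPM of the class (x axis, log scale) for Col27a1, Col16a1 and Col17a1 in 8 classes of at least 20 cells, with points coloured by library and bars for the exact Poisson 95% interval. Col27a1 is high in T cells of the epidermal libraries, Col16a1 in Langerhans cells of non-lesional epidermis and Col17a1 in both keratinocyte classes.

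Col16a1 (chr4:130047840-130099283), a fibril-associated chain, had its largest share of UMIs in non-lesional epidermis in Langerhans cells, the resident dendritic cells of the epidermis. The 205 cells had 569 CPM (528.5 to 611; 739 UMIs), or 58.8% of the UMIs of the gene in that library, beside 23.7 CPM in T cells and 22.8 in keratinocytes. The 41 Langerhans cells of lesional skin had 10.96 CPM (6 UMIs in 2 cells), in the same cluster 17. The 4 Langerhans cells of untreated epidermis had 607 CPM on 11 UMIs, and all 4 had at least 1. A Col16a1 UMI was seen in 81.0% of the non-lesional and 4.88% of the lesional cells, at median depths of 7012 and 14411 UMIs, and in 8.25% of the T cells of non-lesional epidermis, at 3686. At 2000 UMIs per cell the shares were 64.4%, 4.88% and 3.93%.

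In Langerhans cells, a comparison added after the values were seen, 0 of 3 members were higher in lesional skin and 2 lower, beside 8.89% and 5.22% of all genes. Col16a1 was 51.9-fold higher in non-lesional epidermis (23.7 to 142). Col17a1, with 98 UMIs against 0, was at least 13.8-fold higher there when the 0 is set to 3 counts for the lesional cells; its 75.4 CPM lie near the 92.8 of T cells in that library. Both libraries had nearly the same summed level of the 5 Langerhans markers, 9196 and 9221 CPM. The 12 keratinocyte markers, by contrast, summed to 9565 CPM in the non-lesional Langerhans cells (12 with a UMI) and 126 in the lesional ones (9 of 12, with Trp63, Perp and Dsc3 at 0). The 12 markers of T cells and innate lymphoid cells summed to 1069 CPM in the non-lesional (11 with a UMI) and 299 in the lesional Langerhans cells (5). The part of these differences in the result was not tested. Over all genes the median log2 ratio was 0.11, and centring on it left 0 higher and 2 lower.

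Melanocytes (cluster 27) held Col12a1 and Col16a1 in both libraries in which they were numerous. Col12a1 had 152 CPM in non-lesional epidermis (103 to 216) and 85.0 in lesional skin (59.6 to 118), and Col16a1 147 and 77.9. Of 4 members measured, 0 were higher in lesional skin and 1, Col17a1, lower, with 0 against 22 UMIs, beside 4.23% and 4.11% of all genes. On the log2 scale all genes had a median of 0.13, with 0 and 1 after centring. Neither held gene had an interval wholly beyond 1.5-fold, with ratios of 0.558 (0.336 to 0.933) and 0.529 (0.313 to 0.898), though both intervals lie below 1.

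Macrophages and monocytes held no member. Of 3 measured in imiquimod against untreated dermis, Col1a1, Col1a2 and Col3a1, 0 had an interval wholly beyond 1.5-fold in either direction. Of all genes 6.67% were higher and 19.4% lower, and levels of the 3 members were 11.9 to 34.8 CPM. The ratios were 0.534 (0.363 to 0.813), 0.788 (0.561 to 1.14) and 1.68 (1.14 to 2.56). The maturation list gave 0 of 13 higher and 5 lower. Among the 5 was Ctsk, at 83.5 against 281 CPM, which degrades collagen and does not mature it. Receptors gave 0 of 5 and 3, with Cd36 at 36.4 against 430.4 CPM, fibril-binding genes 5 of 7 and 0, and basement membrane partners 0 of 5 and 1. Cells of untreated dermis were 88.0% cluster 9, led by Folr2 and Cd163, and those of imiquimod dermis mostly clusters 0 and 1. Within cluster 0, 0 of 4 members passed in either direction, beside 0.88% and 3.21% of all genes, and within cluster 9 0 of 3, beside 5.52% and 12.2%. The median of all genes over the class was -0.26 on the log2 scale, and centring on it left 0 and 0.

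Other classes can be given more briefly. Lymphatic endothelium of lesional skin held 7, among them Col23a1 at 143 CPM (121 to 167), above the 93.7 of fibroblasts. Hair matrix and inner root sheath held 6, with Col17a1 at 81.1 and Col18a1 at 51.3 CPM. Pericytes and smooth muscle, which held 15 members, had 1232 CPM of Col3a1 and 482 of Col5a2.

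The 9 members that no class held had few UMIs. Col24a1 had 90 over all libraries, and 74 of its 82 lesional UMIs were in fibroblasts, at 8.48 CPM (6.66 to 10.6), 30 of them in cluster 34. Col26a1 had 36, with 29 of 32 lesional UMIs in fibroblasts, Col6a5 36, all lesional, with 31 in fibroblasts, and Col6a4 18, all lesional, with 16 in fibroblasts. Col25a1, a transmembrane chain, had 37, with 23 in lesional fibroblasts. Col4a3 had 30, with 14 of 20 lesional UMIs in fibroblasts, at 1.60 CPM. Its level was highest in outer root sheath and bulge keratinocytes of non-lesional epidermis, at 13.2 CPM (8 UMIs). Col10a1 had 8, Col19a1 2 and Col22a1 1.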

How the data were processed

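The authors deposited UMI counts per gene and cell barcode for 5 libraries of 1 sample each (10x matrices with software version 3.0.2, per the file headers); CASAVA, Cell Ranger and build mm10 are named in the submitters' processing notes, and how barcodes were called as cells is a step that was not given in the sources used here. No deposited annotation of cells was used. Totals were 3020790 to 41258087 counts per library.

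From the counts, barcodes with at least 200 genes and under 20% mitochondrial UMIs were kept (13288 barcodes in, 11613 cells out). Doublets were scored with Scrublet in scanpy 1.11.5, and the top-scoring 0.8% per 1000 cells were removed. Cells were scaled to 10000 UMIs, and 2000 variable genes, 30 principal components and 15 neighbours were used for Leiden clustering at resolution 1.0, without the 44 members. Clusters were named by mean z scores of marker lists (at least 0.5, at least 3 markers detected). The thresholds that left 1 cluster mixed and 1 unnamed were set after the data were seen. Cells in which haemoglobin made up 10% or more of the UMIs formed a class of their own. UMIs were summed per class and library, and ratios were given with exact conditional binomial intervals (scipy 1.17.1; tested on simulated data). Classes under 20 cells were not compared, and a gene at 0 counts was set to a floor of 3 counts. Intervals and floors cover counting error only.

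The 44 members, the 4 other lists and the comparisons were chosen with earlier results of these data known. All members are accounted for; of the other lists, counts are given, and genes named were taken from the up to 4 with the largest ratios beyond 1.5-fold in a comparison. Genes were located in GENCODE vM21 (GRCm38), where all 44 matched by identifier; 37 had no other counted gene over their exons on either strand and 0 had one on the same strand; the rest had one on the opposite strand, whose reads could be mixed with theirs if strand was not used in counting, which the sources used here do not state. Comparisons of Langerhans cells, outer root sheath, melanocytes and chondrocytes, those within clusters and those without single clusters were added after the data were seen.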

Additional observations from a re-analysis of the deposited data

How the results depend on the processing

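No paired analysis was possible because each group is 1 library, and no replicate could be left out. Fibroblast results, summed over clusters, kept 0 lower members under every alternative run, with 16 (centred) to 23 (no filter on low counts) higher. With clusters 6 and 14 pooled and the other clusters left out, 20 were higher, beside 33.7% of all genes higher and 8.85% lower. With the mixed cluster 31 counted as fibroblasts 20 were higher too, beside 37.7% and 9.38%. For the other alternative runs no share of all genes is given in this section, so their counts show only how far the calls shift. No run compared the libraries inside cluster 6 or inside cluster 14, which held 8 imiquimod and 12 lesional cells. Some chains were lower in lesional cells there, as given above.

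Keratinocyte results depended most on the processing. Lesional keratinocytes held 5 members, but 2 at a minimum of 50 CPM, 0 with all barcodes and 2 without doublet removal; non-lesional ones held 2, but 0 at a background ratio above 10 and 1 at 50 CPM; untreated ones held 4, but 1 at either. Lesional against non-lesional, 3 higher became 7 with no filter on low counts, 1 with all barcodes and 0 without doublet removal, and 0 lower became 1 when centred, 2 with no filter, 2 with all barcodes, 4 without doublet removal, 1 at resolution 0.5 and 1 in cluster 16. Non-lesional against untreated, 1 higher became 2 with no filter, 3 as a mean over cells, and 0 at 2-fold, under the strict filter, at resolution 2.0 and in cluster 2.

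Schwann cells had 11 higher, 5 as a mean over cells, and 1 lower, 0 at 2-fold. Blood endothelium had 2 lower, 0 as a mean over cells, 1 at 2-fold and 0 without doublet removal. Macrophages had 0 lower, 2 with no filter. In the outer root sheath 8 higher became 3 without doublet removal, and 4 lower became 1 with all barcodes, 8 without doublet removal, 1 at resolution 2.0, 0 at 0.5 and 1 with collagen genes in the clustering. Chondrocytes had 9 higher, 3 at 2-fold and 4 with all barcodes, and 1 lower, 2 as a mean over cells. Langerhans cells had 0 higher, 1 with no filter. The other 269 values of main counts were within 1.5 times. The cause of these shifts was not tested. At resolution 0.5 no separate pericyte or Schwann cell class formed, and under the strict filter only 9 lesional outer root sheath cells remained, under the minimum of 20, so no value is given there. Classes of 20 to 60 cells limit the precision of chondrocyte, Schwann cell, endothelial and Langerhans values.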
